A study of Mus musculus with 2 samples.

Results

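The replication-dependent histone cluster of mouse chromosome 13 was examined in MIN6 cells, a mouse insulinoma line often taken to stand for beta cells of the pancreas, for reads precipitated with the co-repressor CtBP2. The cluster was taken as 2 intervals of build mm9, chr13:21700001-22150000 (interval 1) and chr13:23500001-23950000 (interval 2), each of 450 kb or 900 bins of 500 bp. These 1800 bins are among 5283856 bins of the genome, and the 1350 kb or 2700 bins at chr13:22150001-23500000 served as the comparison stretch. The intervals were set by position and not by read counts. An antibody to CtBP2 was used for chromatin immunoprecipitation (ChIP) in 1 library, and 1 input library was made from sheared chromatin without precipitation, both from untreated MIN6 cells with no genetic change named. After 1 read per chromosome, 5′ end and strand was kept, the ChIP library held 8474671 and the input library 12471942 distinct reads. These were 24.3% and 59.9% of their reads on nuclear chromosomes. With 1 library per group, every test compares the reads of these 2 libraries and not conditions, and no replicate spread can be given. No expression was measured, so the cell type could not be checked against marker RNAs.

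Replication-dependent histone genes encode the core histones H2A, H2B, H3 and H4, which form the protein core of the nucleosome, and the linker histone H1, which binds the DNA entering and leaving it. They are short genes without introns, are transcribed mainly during S phase in nuclear foci called histone locus bodies, and give RNAs that end in a stem-loop instead of a poly(A) tail. Many lie head to head and share a promoter region. CtBP2 does not read DNA sequence by itself in the usual view and is brought to DNA by partner proteins such as the ZEB factors, which bind the E-box CACCTG.

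In the RefSeq annotation of GRCm38, used for names and order only, the 2 blocks of histone genes on this chromosome held 56 genes. The first block, from H2bc13 to H2bc11, had 24 of them, with 1 H1, 8 H2A, 8 H2B, 2 H3 and 5 H4 genes. The second, from H4c8 to H2ac1, had 32, with 5 H1, 7 H2A, 7 H2B, 7 H3 and 6 H4 genes. Of the 56, 2 H2A entries were pseudogenes. The first block also held 31 tRNA genes, which RNA polymerase III transcribes, and 3 other protein-coding genes (Zfp184, Pom121l2 and Prss16), all of them between H4bc24, the table's symbol for an H2B gene, and the H2A gene H2ac12. The second block held no tRNA gene and 6 other protein-coding genes, among them Hfe, Trim38 and 4 Slc17a transporter genes. Between the blocks lay 79 Vmn1r entries (vomeronasal receptors, 43 of them pseudogenes), 46 tRNA genes and 5 other protein-coding genes. Positions of GRCm38 cannot be set against mm9 reads here, so no CtBP2 region below is assigned to a gene, and a histone gene, a tRNA gene or another gene cannot be told apart as its neighbour.

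The promoters of these genes are shown because they hold sequence elements, of which the CCAAT box and the octamer differed in frequency between some histone classes. RefSeq promoter sequences (GRCm38.p6, 250 bases before to 50 after the start) were found for 51 of the 56 genes. The first gene of each class in chromosomal order is printed, and for H2B the first with the octamer. Capitals mark the CCAAT box, the TATA box as TATAAA, and the octamer as ATTTGCAT, each on either strand, and none of these motifs overlaps another in the sequences shown.
H1f5, linker histone H1, chr13:21780576-21780875, minus strand: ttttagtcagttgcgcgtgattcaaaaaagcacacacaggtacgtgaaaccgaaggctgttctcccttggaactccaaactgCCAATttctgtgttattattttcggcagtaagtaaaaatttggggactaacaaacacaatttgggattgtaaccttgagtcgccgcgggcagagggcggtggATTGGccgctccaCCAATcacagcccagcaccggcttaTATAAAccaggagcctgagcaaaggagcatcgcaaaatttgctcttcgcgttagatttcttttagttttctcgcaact
H2ac13, core histone H2A, chr13:21716162-21716461, plus strand: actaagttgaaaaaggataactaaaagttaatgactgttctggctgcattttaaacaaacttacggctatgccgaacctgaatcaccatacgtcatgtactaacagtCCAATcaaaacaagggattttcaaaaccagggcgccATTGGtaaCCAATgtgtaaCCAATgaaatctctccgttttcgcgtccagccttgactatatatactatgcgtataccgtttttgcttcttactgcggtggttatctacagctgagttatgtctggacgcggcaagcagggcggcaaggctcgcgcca
H2bc14, core histone H2B, chr13:21721794-21722093, plus strand: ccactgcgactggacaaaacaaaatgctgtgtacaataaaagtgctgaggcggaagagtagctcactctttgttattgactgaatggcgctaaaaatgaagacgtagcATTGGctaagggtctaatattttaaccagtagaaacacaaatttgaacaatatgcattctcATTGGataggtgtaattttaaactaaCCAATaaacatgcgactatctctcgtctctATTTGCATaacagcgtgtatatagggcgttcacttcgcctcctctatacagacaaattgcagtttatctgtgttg
H3c10, core histone H3, chr13:21717378-21717677, plus strand: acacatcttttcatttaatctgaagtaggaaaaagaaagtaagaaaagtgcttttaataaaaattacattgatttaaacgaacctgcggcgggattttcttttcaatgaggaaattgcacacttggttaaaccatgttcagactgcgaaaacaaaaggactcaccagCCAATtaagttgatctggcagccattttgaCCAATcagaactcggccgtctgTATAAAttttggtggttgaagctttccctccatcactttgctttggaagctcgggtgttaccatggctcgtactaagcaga
H4c11, core histone H4, chr13:21734784-21735083, plus strand: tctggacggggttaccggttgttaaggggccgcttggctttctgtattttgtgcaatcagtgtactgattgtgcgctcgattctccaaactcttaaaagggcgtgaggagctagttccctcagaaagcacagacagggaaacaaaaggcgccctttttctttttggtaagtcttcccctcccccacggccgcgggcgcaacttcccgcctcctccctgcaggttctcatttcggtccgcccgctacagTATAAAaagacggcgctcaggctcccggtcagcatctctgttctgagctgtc

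The CCAAT box, which NF-Y binds, was in all 40 promoters of H1, H2A, H2B and H3 genes searched and in 3 of 11 H4 promoters (27.3%), against 37.9% of the 27025 promoters of the whole table. TATAAA, the TATA box, was in 31 of the 51 histone promoters (60.8%) against 14.2% of all promoters. The octamer, which Oct-1 binds at H2B genes, was in 5 of 14 H2B and 5 of 13 H2A promoters and in none of the H1, H3 and H4 promoters, against 1.75% of all. Head-to-head H2A and H2B genes can share bases of these windows, so their counts cannot be taken as independent. The overlap of windows was not measured. The ZEB-type E-box CACCTG was in 5 of 51 histone promoters (9.80%) against 5413 of 27025 in the whole table. These are matches of letters and were not set against the reads.

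CtBP2 ChIP reads were dense in both histone intervals and sparse between them. Interval 1 held 8478 ChIP and 3175 input reads, or 18.8 and 7.06 per kb. Interval 2 held 10893 and 3530, or 24.2 and 7.84 per kb, and the stretch between 1955 and 6422, or 1.45 and 4.76 per kb. After scaling of input by the ratio of library totals (0.679), ChIP was 3.93 times input in interval 1 (95% exact interval 3.77 to 4.09) and 4.54 times in interval 2 (4.37 to 4.72). It was 0.448 times input in the stretch between (0.426 to 0.471) and 0.873 times on the rest of chromosome 13. Scaled on background bins, these ratios were 12.2, 14.2, 1.40 and 2.72 in the same order, so that the last 2 were above input. Background bins were bins of 10 kb with input reads and at most 11 ChIP reads, the median. Being chosen for low ChIP, they give a lower scale (0.218) and so higher ratios everywhere. Library totals in turn include the reads of enriched regions, called below, which held 57.6% of ChIP and 7.69% of input reads in the genome. Outside those regions and their 2 kb flanks, the genome ratio by library totals was 0.432. The 0.448 of the stretch between therefore does not by itself show depletion. Without high-input bins, the ratios of intervals 1 and 2 were 1.32 and 1.86, and that of the stretch between was 0.409. With all deposited reads the stretch between was at 0.253. The ratio of interval 1 was 8.77 times that of the stretch between (95% Woolf interval 8.22 to 9.36) and that of interval 2 was 10.1 times (9.52 to 10.8). Interval 2 was in turn 1.16 times interval 1 (1.09 to 1.22). All these intervals cover counting error only, since each group had 1 library. PCR copies of a molecule were also not told apart by identifiers.

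**Figure D1:**
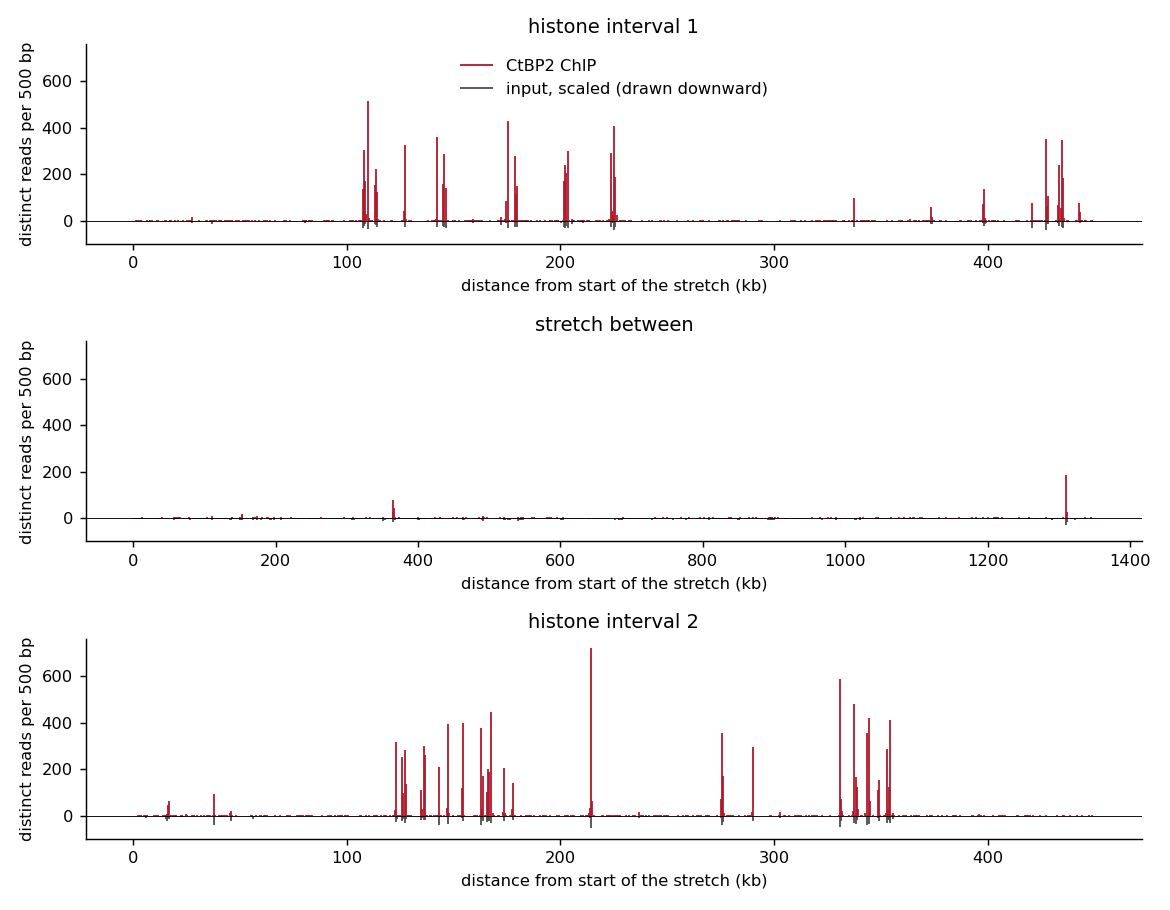
Distinct reads per 500 bp bin of the CtBP2 ChIP library (red, upward) and of the input library scaled by library totals (grey, downward) over histone interval 1, the stretch between and histone interval 2, plotted against distance in kb from the start of each stretch. Narrow ChIP peaks reach 514 reads in interval 1 and 720 in interval 2, while the highest bin between the intervals holds 184.

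Of the bins that could be tested, a larger share was called in the histone intervals than in the genome. A bin was called where an exact one-sided binomial test of ChIP against input reads had an adjusted p of at most 0.01 (Benjamini-Hochberg over 4026144 bins with at least 1 read) and the fold over scaled input of the same bin was at least 3. The genome share was 0.700% (28178 bins). In interval 1, 40 of 729 tested bins were called (5.49%, 95% exact interval 3.95 to 7.40), and in interval 2 it was 47 of 749 (6.28%, 4.65 to 8.26). In the stretch between, 4 of 2174 were called (0.184%, 0.0502 to 0.470), below the genome share. These exact intervals take bins as independent. Neighbouring bins can share a peak, so the intervals are likely too narrow. No read of either library fell in 171 and 151 bins of the histone intervals and in 526 of the stretch between. No bin of the 3 stretches was called lower in ChIP, against a genome share of 0.00775%. High-input bins were those with input at least 10 times the mean over genome bins with a read of either library. Without them, 35 bins of the histone intervals were called in place of 87, against a genome share of 0.342%. The 4 bins of the stretch between became 1 with all deposited reads (genome share 0.475%) and 8 with input scaled on background bins (genome share 1.23%).

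The number of called bins in each histone interval was high among stretches of the same length. The genome outside the 3 stretches gave 5852 windows of 450 kb, with a median of 3 called bins (interquartile range 1 to 7) and a maximum of 63, and 1167 of them held none. Only 15 windows had at least the 40 bins of interval 1, and 7 had at least the 47 of interval 2. Cut into the same length, the stretch between gave 3, 0 and 1 called bins. These ranks describe 1 pair of libraries and carry no test.

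**Figure D2:**
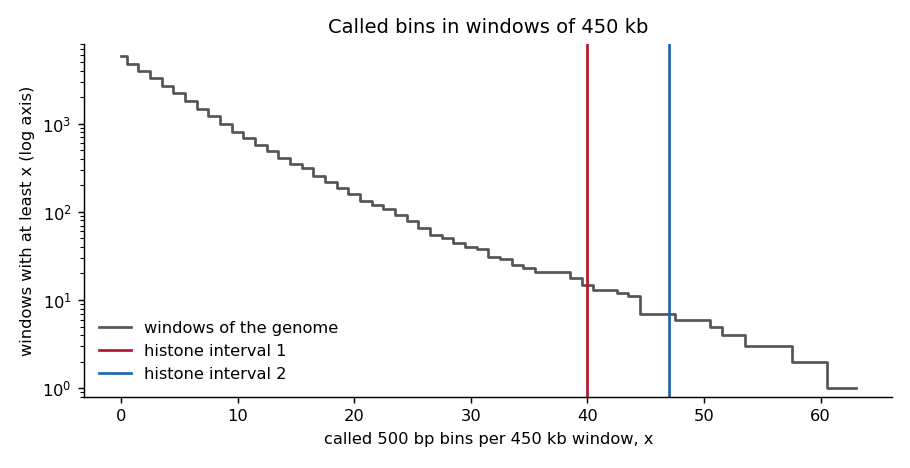
Number of 450 kb windows of the genome (log axis) with at least the number of called 500 bp bins on the horizontal axis, outside the 3 stretches. The vertical lines mark histone interval 1 at 40 called bins, which 15 of 5852 windows reached, and histone interval 2 at 47, which 7 reached.

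Joining called bins at most 500 bp apart gave 15 CtBP2 regions in interval 1, 20 in interval 2 and 2 between, or 3.33, 4.44 and 0.148 regions per 100 kb against 0.614 in the genome. These regions carried nearly all ChIP reads of the histone intervals. In interval 1 they took 4.78% of the length, 91.2% of ChIP reads (95% exact interval 90.6 to 91.8) and 41.8% of input reads (40.1 to 43.5). In interval 2 they took 5.89% of the length, 92.3% of ChIP (91.8 to 92.8) and 46.0% of input reads (44.4 to 47.7). In the genome, regions held 57.6% of ChIP and 7.69% of input reads on 0.541% of the length. Because regions were called in the same reads, their shares and folds are descriptions of the calls.

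In interval 1 the regions fell into a left and a right group 111 kb apart. The left group had 9 regions from 21807501 to 21926000, and the right group 6 regions from 22037001 to 22143000. Folds on the left ran from 6.97 to 13.4, and those on the right from 3.80 to 9.01. The region with the most reads of either interval was the first, at 21807501 to 21810000, with 1153 ChIP and 165 input reads over 2500 bp. Its fold was 10.3 (95% exact interval 8.73 to 12.2), the lowest adjusted p of its bins was 1.47e-135 (exact binomial test, Benjamini-Hochberg), and 98.8% of all regions of the genome had fewer ChIP reads. By distinct reads the highest fold of the interval belonged to a single bin at 21842001 to 21842500, where 359 ChIP stood against 39 input reads, a fold of 13.4 (9.72 to 19.4). It was followed by 21874501 to 21875500 with 511 and 61 reads (fold 12.2, 9.44 to 16.4). The region at 21826501 to 21827500 had 368 and 52 reads and a fold of 10.3 (7.77 to 14.2). The intervals of these 4 overlapped, so their order is not resolved at this depth.

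Most other strong regions of interval 1 were wider and had folds close to one another. At 21923501 to 21926000 there were 952 ChIP and 163 input reads (fold 8.57, 7.27 to 10.2), and at 21901501 to 21904000 there were 918 and 163 (8.27, 7.01 to 9.85). The right group was led by 22132501 to 22135500, the widest region of the interval at 3000 bp, with 893 and 150 reads and a fold of 8.74 (7.36 to 10.5). Close to it lay 22142501 to 22143000, which had only 76 and 12 reads and a fold of 9.01 with a broad interval of 5.04 to 18.8. Without the shift of 5′ ends its fold was 4.73. At 21878501 to 21880000 the counts were 542 and 94 (8.45, 6.81 to 10.7), and at 21813001 to 21814500 they were 495 and 93 (7.80, 6.27 to 9.88), the latter with a fold of 5.06 by all deposited reads. The weakest regions were single bins of the right group at 22037001 (99 and 38 reads, fold 3.80) and 22073001 (57 and 20 reads, fold 4.13).

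Interval 2 held a dense run of regions. Between 23622501 and 23678000, 11 regions lay within 55.5 kb with a median gap of 4.25 kb. By distinct reads the highest fold of the cluster was in this run at 23636001 to 23637000, where 559 ChIP stood against 55 input reads, a fold of 14.8 (11.3 to 20.1) that ranked 246 of 16228 regions. With all deposited reads its fold was 17.2, and a region outside the run, at 23713501, was highest at 23.4. Next was 23653501 to 23654500 with 517 and 53 reads (fold 14.2, 10.8 to 19.4). The first region of the run, 23622501 to 23623500, had 339 and 38 reads (12.98, 9.37 to 18.9). The region at 23646501 to 23647500 had 430 and 59 (10.6, 8.16 to 14.3). The run also held the wide regions at 23665501 to 23668000, with 940 and 165 reads (8.36, 7.10 to 9.95), and at 23625501 to 23628000, with 770 and 126 (8.96, 7.44 to 10.9).

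To the right of this run the regions of interval 2 were fewer, and most held many reads. The fewest, 266 ChIP and 51 input reads, were at 23848501 to 23849500. The region at 23713501 to 23715000 stood alone, 35.5 kb from the run and 60 kb from the next, with 815 ChIP and 96 input reads and a fold of 12.4 (10.1 to 15.6). Its bins gave the lowest adjusted p of the cluster, 3.18e-183 (exact binomial test, Benjamini-Hochberg). A single bin at 23790001 to 23790500 had 293 and 37 reads (11.5, 8.26 to 16.9). A last run of 5 regions from 23830501 to 23854500 held 3422 ChIP and 571 input reads. It opened with 23830501 to 23831500 at 659 and 105 reads (9.20, 7.51 to 11.5). Within it, 23843001 to 23845000 and 23852501 to 23854500 each held 840 ChIP reads, against 125 and 142 input reads, with folds of 9.86 (8.19 to 12.0) and 8.68 (7.28 to 10.5). The lowest fold of interval 2, 3.83 (2.66 to 5.71), was at 23516001 to 23517000, which ended 105.5 kb before the dense run. No region was called in the last part of the interval, beyond 23854500.

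The stretch between had 2 regions, both weaker than most of the histone intervals. That at 22514501 to 22516000 held 147 ChIP and 41 input reads over 1500 bp, a fold of 5.23 (3.71 to 7.65) at 98.0 ChIP reads per kb. With all deposited reads its fold was 2.26, under the limit of 3, and it had 1.09 ChIP reads per position. That at 23460501 to 23461000 held 184 and 44 reads, a fold of 6.10 (4.41 to 8.76), and lay within 50 kb of the start of interval 2. Without the shift the latter fold was 4.35. With the histone intervals widened by 50 kb on both sides, this region counts as theirs, and the number of regions there was 36 in place of 35.

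**Figure D3:**
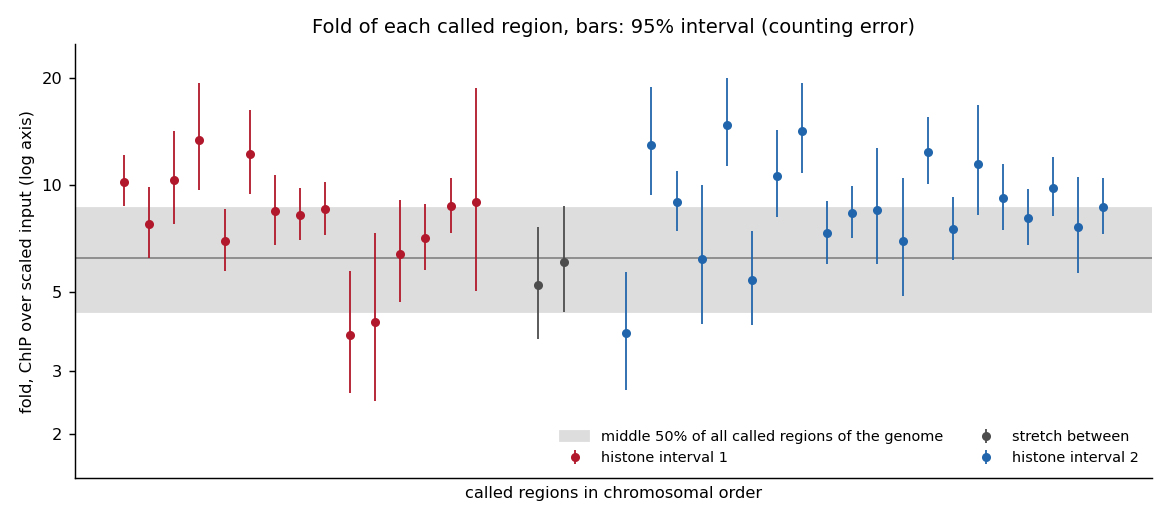
Fold of ChIP over scaled input (log axis) for the 15 called regions of histone interval 1, the 2 of the stretch between and the 20 of histone interval 2, in chromosomal order, with 95% exact intervals for counting error. The grey band spans the middle 50% of the 16228 regions of the genome, from 4.42 to 8.67, and 30 of the 35 histone regions lie above the genome median of 6.24.

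Against the 16191 regions elsewhere in the genome, those of the histone intervals were more often wide and held more ChIP reads. The median was 517 ChIP reads (range 57 to 1153) in the 35 histone regions and 206 elsewhere, and the median fold was 8.52 against 6.24. Median ChIP density was 376 reads per kb against 268, whereas median input density was 62.5 against 62.0. The upper quartile of ChIP density was lower, at 426 reads per kb against 481 elsewhere. The median width was 1000 bp in both sets. A width of 1500 bp or more was found in 16 of 35 (45.7%) against 15.5% elsewhere, and a fold of at least 10 in 10 of 35 (28.6%) against 14.5%. Over the distinct reads in regions, ChIP over scaled input was 8.58 (8.09 to 9.10) in interval 1 and 9.11 (8.65 to 9.61) in interval 2. With all deposited reads the same regions gave 6.85 and 9.27, so interval 2 was 1.06 times interval 1 by distinct reads and 1.35 times by all reads.

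Input was itself dense in the regions. Input density was 61.7 reads per kb in the regions of interval 1 and 61.3 in those of interval 2, against 3.99 and 4.20 outside regions and their 2 kb flanks. Across the 35 regions, ChIP and input densities had a Spearman's rho of 0.636, and across the 16191 regions elsewhere 0.880. Regions are not independent replicates, and both densities share local DNA properties such as how many reads can be placed. The part of raised input in the ChIP signal was not tested beyond the fold over input of the same bins.

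Outside the regions, ChIP reads were few in all 3 stretches, with small differences between them. Beyond regions and 2 kb on each side, ChIP was 0.501 times scaled input in interval 1 (0.452 to 0.555) and 0.546 times in interval 2 (0.495 to 0.603). It was 0.373 times in the stretch between (0.352 to 0.394), 0.422 on the rest of chromosome 13 and 0.432 in the genome. The histone intervals as 1 set were 1.41 times the stretch between (95% Woolf interval 1.29 to 1.54) and 1.24 times the rest of the chromosome (1.16 to 1.33). The stretch between was 0.883 times the rest of the chromosome (0.835 to 0.933). In reads, this was 1.36, 1.56 and 1.18 ChIP reads per kb in interval 1, interval 2 and the stretch between. Input there was 3.99, 4.20 and 4.67 per kb. With input scaled on background bins, the ratios outside regions were 1.56, 1.70 and 1.16, above input in place of below it and in the same order. That of the rest of chromosome 13 was 1.31. Since background bins were chosen for low ChIP, values above input do not by themselves show signal outside the regions. Library totals include the reads of the regions, so values below input by that scale do not by themselves show depletion.

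Many histone regions were made of separate sharp summits. Summits were maxima of ChIP reads in a 150 bp window with at least 20 reads, parted by a fall to at most 50% of the lower one. The 35 regions held 56 summits, with 20 regions of 1 summit, 9 of 2 and 6 of 3. In all, 15 of 35 (42.9%) had 2 or more, against 19.7% of all 16228 regions. At a width of 1500 bp it was 6 of 7 against 48.1% elsewhere, at 2000 bp or more 9 of 9 against 87.1%, at 1000 bp 0 of 11 against 18.0%, and at 500 bp 0 of 8 against 7.93%. The 5 regions with the most reads each had 3 summits, and between them both libraries fell to few reads, as in every pair of neighbouring histone summits. In the middle 200 bp between neighbours there were 0 to 6 ChIP reads (median 2) and 0 to 5 input reads (median 1) over 21 pairs. How well reads can be placed in these gaps was not tested. In the first region the summits lay at 21807741, 21808381 and 21809681. The 300 bp around them held 134, 331 and 432 ChIP reads and 45, 34 and 42 input reads, so the left summit had the fewest ChIP and the most input reads. Its fold of 4.35 compared with 14.1 and 14.98 at the others.

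**Figure D4:**
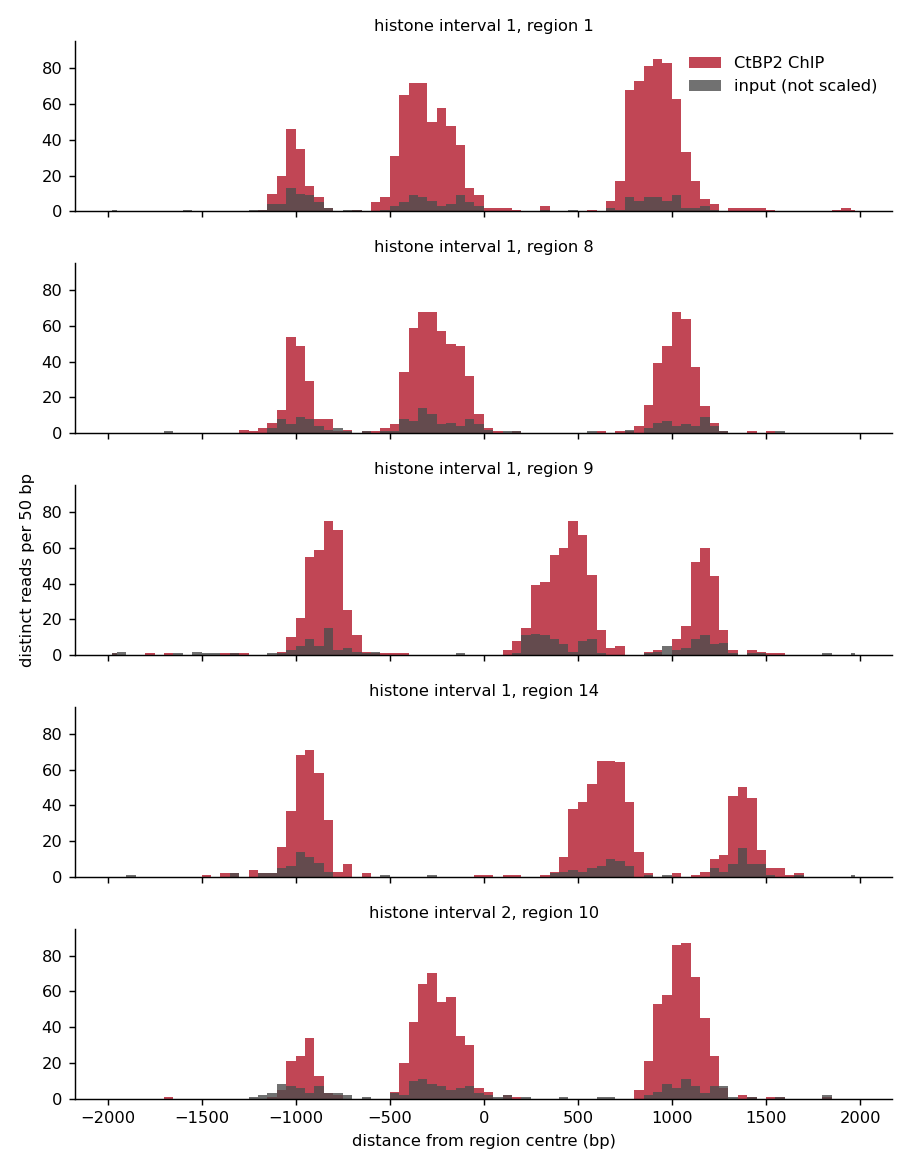
Distinct reads per 50 bp of the CtBP2 ChIP library (red) and the unscaled input library (grey) against distance in bp from the centre of the 5 histone regions with the most ChIP reads. Each region shows 3 separate summits in both libraries, 1 of them narrower and lower in ChIP in regions 1, 8, 9 and 14 of interval 1 and region 10 of interval 2.

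Many neighbouring summits within a region stood at similar distances. Of 21 neighbouring pairs, 12 were 640 to 750 bp apart (median 695) and 9 were 1000 to 1610 bp apart (median 1330). No pair was closer than 640 bp. Summits were paired only within a region and had to lie at least 200 bp apart, here and elsewhere. The joining of bins into regions thus limits the distances that can be seen. Elsewhere in the genome, 19.8% of 3930 pairs were 600 to 800 bp apart and the median distance of all pairs was 500 bp. In the 12 closer pairs the wider summit measured 218 to 337 bp at 50% of its height (median 320) and the narrower one 174 to 197 bp (median 180). Each pair was sorted by width, so a difference is built in. Pairs elsewhere at 600 to 800 bp had medians of 393 and 219 bp. The wider summit had the higher fold in 11 of 12, with medians of 11.1 against 5.97, and in 68.0% of the 779 pairs elsewhere at 600 to 800 bp. The exception was the pair at 23838241 and 23838951, with folds of 5.01 and 7.46. Input differed less, with medians of 39.5 reads at the wider and 36 at the narrower summit, against 318.5 and 148.5 ChIP reads. In the 9 pairs farther apart, the wider summit had the higher fold in 5, and in 3 with all deposited reads. Width and fold were taken from the same ChIP reads, so a higher fold at the wider summit is in part built in. Distances, the limit of 800 bp and the split by width were chosen after the values were seen.

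Over all 56 histone summits, width and fold rose together (Spearman's rho 0.680, as a description, against 0.372 over the 19540 summits elsewhere). Both were taken from the same ChIP reads, and a narrow summit fills less of the 300 bp in which fold was counted. They are thus tied in part by construction. The 17 summits under 200 bp wide had folds of 4.09 to 7.91 (median 5.91), and the 39 wider ones folds of 4.61 to 19.01 (median 11.8). The widest, 433 bp at 23714261, had 517 ChIP and 43 input reads and a fold of 17.5. The highest fold, 19.01, was at 23830841, with 484 and 37 reads and a width of 345 bp.

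**Figure D5:**
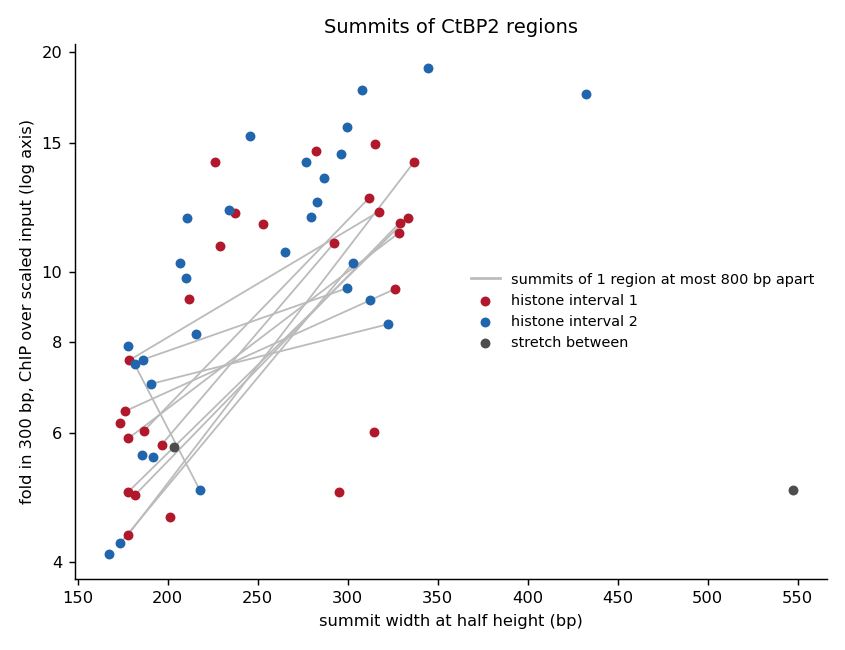
Fold of ChIP over scaled input in 300 bp around each summit (log axis) against the summit's width in bp at 50% of its height, for the histone intervals and the stretch between. Grey lines join the 12 pairs of summits of 1 region at most 800 bp apart, and in 11 of them the line rises from the narrower to the wider summit. Both axes use the same ChIP reads and are tied in part by construction.

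Distinct reads came close to their ceiling at the strongest summits. A 150 bp window offers 300 positions over both strands, and the histone summits filled 11.7% to 92.3% of them (median 61.7%), against a median of 30.0% at summits elsewhere. At least 80% were filled at 11 of 56 histone summits (19.6%) and at 1.65% of those elsewhere. Counting 1 read per position therefore limits the fold where ChIP is dense. Most folds were lower with all deposited reads: 7 of the 23 named regions had a higher one, and the median over the 35 histone regions went from 8.52 to 6.41. Of the highest summits, that at 23714261 had a fold of 38.9 in place of 17.5, and that at 23830841 had 33.8 in place of 19.01. The median fold of the narrower summits of the 12 close pairs was 3.75 and that of the wider ones 7.66, with the wider higher in 11 of 12 again. The whole region at 23713501 went from 12.4 to 23.4 and had 5.03 ChIP reads per position, against a median of 2.31 over the histone regions. That at 23830501 went from 9.20 to 14.0, with 4.34 reads per position. Over the whole ChIP library the mean was 4.12 reads per position, and regions elsewhere had a median of 2.23.

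A few deep bins missed the call. In the histone intervals 10 bins with at least 20 ChIP reads were not called, and in the stretch between 1. The deepest were 23537501 to 23538000, with 93 ChIP and 60 input reads (fold 2.27), and 22120501 to 22121000, with 74 and 48 (fold 2.26). Both had adjusted p-values under the limit (5.07e-05 and 0.000786, exact binomial test, Benjamini-Hochberg) and failed on fold, and both stood apart from any called region. Among called bins, the lowest fold was 3.80 in interval 1 and 3.05 in interval 2.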

How the data were processed

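Deposited files held 1 aligned read per line on build mm9, and each read was a raw count of 1, as the authors deposited it, with no normalization and a score column of 0 throughout. The deposited values of the other kind are genome positions in bp. BWA, SAMtools 0.1.19 and bedtools 2.17.0 are named in the submitters' processing notes, without settings. Filters on mapping quality and the placement of reads with several matches are not given in the sources used here, and histone genes hold near-identical coding sequences. Reads spanned 33 to 38 bp. Per the labels' protocols, a control IgG precipitation was also made, and it was not analysed here.

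In each library 1 read per chromosome, 5′ end and strand was kept on 21 nuclear chromosomes. The fragment length from strand overlap was 220 bp for ChIP (205 bp for input), so 5′ ends were shifted by 110 bp in both libraries. Input was scaled by library totals. Fold was ChIP over scaled input with 0.5 added to each count, and its intervals are 95% Clopper-Pearson based. Python 3.11.15, NumPy 2.4.6, SciPy 1.17.1, pandas 2.3.3 and matplotlib 3.10.9 were used, and the test was tested on simulated data. Named regions were the 10 with the highest fold in each histone interval, the 5 with the most ChIP reads and those of the stretch between. Other regions, summits and bins were chosen after their values were seen. The intervals, lists and rules were chosen with earlier results of these data known. Alternatives for reads, scaling, shift, bins, thresholds and interval edges are given in the closing section.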

Additional observations from a re-analysis of the deposited data

How the results depend on the processing

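No paired analysis was possible because ChIP and input were single libraries, and no replicate could be left out. The 35 histone regions numbered 28 to 44 under 14 other settings, all within 1.5 times. The 87 histone bins stayed within 1.5 times under 10 of 11 settings and fell to 35 without high-input bins, which removes bins by construction. In the genome, 28178 bins became 13707 without high-input bins, 18149 at a fold of at least 5 and 49463 with background-bin scaling. The 4 bins between became 1 with all deposited reads and 8 with background-bin scaling. Ratios of ChIP to scaled input in interval 1, the stretch between and interval 2 were 12.2, 1.40 and 14.2 with background-bin scaling, 1.32, 0.409 and 1.86 without high-input bins, and 3.52, 0.406 and 4.12 with intervals widened by 50 kb. With all deposited reads they were 3.09 and 0.253 in interval 1 and the stretch between, and 4.50 in interval 2, within its counting interval. The order of the 3 stretches held under each of these settings. Of the 23 named folds, all left their counting interval with background-bin scaling (16.3 to 46.2), 9 with all deposited reads and 2 without a shift. Background-bin scaling divides every ratio and fold by 0.321, the 2 scales' ratio, and so moves them all by construction. With all deposited reads the input scale was 1.67 in place of 0.679. A fold therefore falls by construction unless its ChIP reads grow enough more than its input reads. Why reads per position differed between places was not tested, nor was the cause of the moves without a shift and with widened intervals. All-read values of summits and summed regions, and background-bin scaling outside regions, were chosen after seeing the data.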
